A study of Mus musculus with 4 samples.

Results

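The 40 genes described here encode the machinery that copies chromosomal DNA and the enzymes that supply it: Mcm2 to Mcm7, Mcm10, Pcna, Cdc6, Cdt1, Cdc45, Gins1 to Gins4, Orc1, Orc6, Rfc1 to Rfc5, Pola1, Pola2, Prim1, Prim2, Pole, Pold1, Rrm1, Rrm2, Tk1, Tyms, Lig1, Fen1, Chaf1a, Chaf1b, Uhrf1, Ccne1, Ccne2 and E2f1. They were chosen by symbol, and all 40 were found among the 29247 gene IDs of the count table, each under a single ID. Messenger RNA was sequenced from flow-sorted liver macrophages of C57BL6J mice aged 8 weeks. The APAP group held 3 libraries of Cxcr4+ macrophages, taken 72 h after intraperitoneal acetaminophen (APAP) at 300 mg/kg in saline, and the control group held 1 library of control macrophages. The labels give no dose, vehicle or Cxcr4 gate for the control, so the injury and the sort cannot be told apart, and whether each APAP library is a separate animal is not stated. P-values therefore measure the spread between these libraries, which may be technical.

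Replication is prepared before S phase, when the origin recognition complex, Cdc6 and Cdt1 load the ring-shaped MCM helicase onto DNA. Cdc45 and the GINS complex then switch the helicase on, primase and the polymerases copy the strands, and the PCNA clamp, loaded by replication factor C, keeps the polymerases on the template. Most of these genes are transcribed in bursts as cells enter S phase, under the E2F transcription factors. In a mixed population the level of these genes can therefore vary with the fraction of cycling cells, though not with that alone. Resident macrophages of the liver, the Kupffer cells, are known to renew themselves by division, and recruited monocytes can also enter the cell cycle after injury.

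Because the E2F factors are the shared regulators of this gene group, the promoters were searched for the E2F words TTTCCCGC, TTTCGCGC, TTTGCCGC and TTTGGCGC on both strands, and for CCAAT, a frequent promoter word. RefSeq promoter windows (build GRCm38.p6), running from 250 bases before to 50 bases after the start of transcription, were at hand for 32 of the 40 genes. An E2F word occurred in 13 of the 32 (40.6%), against 704 of 27025 genes in the whole promoter table (2.6%). CCAAT occurred in 19 of the 32 (59.4%), against 41.1% of the table, and both words in 9 (28.1%), against 1.26%. The 160 bases before the start are shown for the 2 MCM promoters with E2F words there, and for 4 of the members whose level differed in the test below, Mcm3, Tk1 and E2f1 (lower) and Rfc1 (higher). Capitals mark the E2F words and CCAAT on either strand. The Mcm5 stretch is chr8:75109349-75109508 on the plus strand. The others lie on the minus strand, at chr1:128359706-128359865 for Mcm6, chr1:20820313-20820472 for Mcm3, chr11:117826015-117826174 for Tk1, chr2:154569427-154569586 for E2f1 and chr5:65335640-65335799 for Rfc1.
Mcm5: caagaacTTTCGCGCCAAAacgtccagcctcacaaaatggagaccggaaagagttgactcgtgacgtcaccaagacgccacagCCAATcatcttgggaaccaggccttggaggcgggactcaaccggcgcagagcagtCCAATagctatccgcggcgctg
Mcm6: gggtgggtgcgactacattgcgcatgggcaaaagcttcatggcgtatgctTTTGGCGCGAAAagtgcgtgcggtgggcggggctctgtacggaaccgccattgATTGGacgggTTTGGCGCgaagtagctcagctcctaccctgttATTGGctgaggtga
Mcm3: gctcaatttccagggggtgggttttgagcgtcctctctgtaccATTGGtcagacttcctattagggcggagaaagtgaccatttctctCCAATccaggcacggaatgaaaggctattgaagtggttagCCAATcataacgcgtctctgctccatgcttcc
Tk1: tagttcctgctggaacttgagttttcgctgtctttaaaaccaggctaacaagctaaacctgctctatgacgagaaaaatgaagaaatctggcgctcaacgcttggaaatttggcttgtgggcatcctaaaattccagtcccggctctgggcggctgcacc
E2f1: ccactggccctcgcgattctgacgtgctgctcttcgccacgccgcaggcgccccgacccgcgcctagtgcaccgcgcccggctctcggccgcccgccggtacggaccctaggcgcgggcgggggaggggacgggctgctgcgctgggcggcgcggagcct
Rfc1: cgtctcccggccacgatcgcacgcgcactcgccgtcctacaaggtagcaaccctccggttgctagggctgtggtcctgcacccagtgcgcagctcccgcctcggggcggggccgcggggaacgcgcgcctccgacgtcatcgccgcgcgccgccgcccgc
In Mcm5 and Mcm6 the leftmost capitals are a pair of E2F words on opposite strands that overlap. Mcm3 held its E2F words just after the start, at chr1:20820267-20820293 on the minus strand.
Mcm3 site: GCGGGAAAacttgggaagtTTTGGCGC
The windows of Tk1, E2f1 and Rfc1 held none of these E2F words. A match is a description of the letters, and no match says only that they are not in this window.

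Total counts ran from 48282283 to 56702837 after APAP, with 49950909 for the control. Levels are given in CPM, reads scaled to a common library size with TMM (trimmed mean of M-values) factors of 1.03 to 1.04 after APAP and 0.9 in the control. The members had 29 to 5589 reads per library. The lowest control count, 48 for Orc1, has an exact Poisson 95% interval of 35.4 to 63.6, which covers counting error only. All 8 macrophage markers, from Adgre1 to Cd14, stood above 100 CPM in every library. They differed between the groups too: 5 fell, 1 rose (Mertk), and their median log2 fold change was -0.55, with the part of this in the results not tested. The sort marker Cxcr4 was at 84.5, 132 and 101 CPM after APAP against 41.3 CPM in the control. The APAP libraries are called the first, the second and the third in the order of their columns, and values are given in that order.

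Most DNA replication genes were at a lower level in the APAP Cxcr4+ macrophages than in the control, and the size of the difference depended on the library. The fold change was below 0 for 36 of the 40, against 46.5% of all genes tested, and its median was -0.66 on the log2 scale, against 0.09 for all genes tested. The control lay above all 3 APAP libraries for 28 members (70.0%), where 39.2% of all genes tested did so, and below all 3 for 1 member (2.5%), where 45.7% did so. The edgeR test called 8 members, 7 of them lower and 1 higher, while 44.3% of all genes tested were called in either direction. Those 7 are 17.5% of the list, near the 18.9% of all genes that were called lower, and the 1 is 2.5%, against the 25.4% called higher. With library totals alone in place of TMM factors, the median of all genes tested moved from 0.09 to 0.29, that of the members moved to -0.45, and 31 of the 40 stayed below 0. In these bulk libraries, fewer cycling cells, less RNA per cell and a different mix of cells cannot be told apart. None of these was tested.

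**Figure D1:**
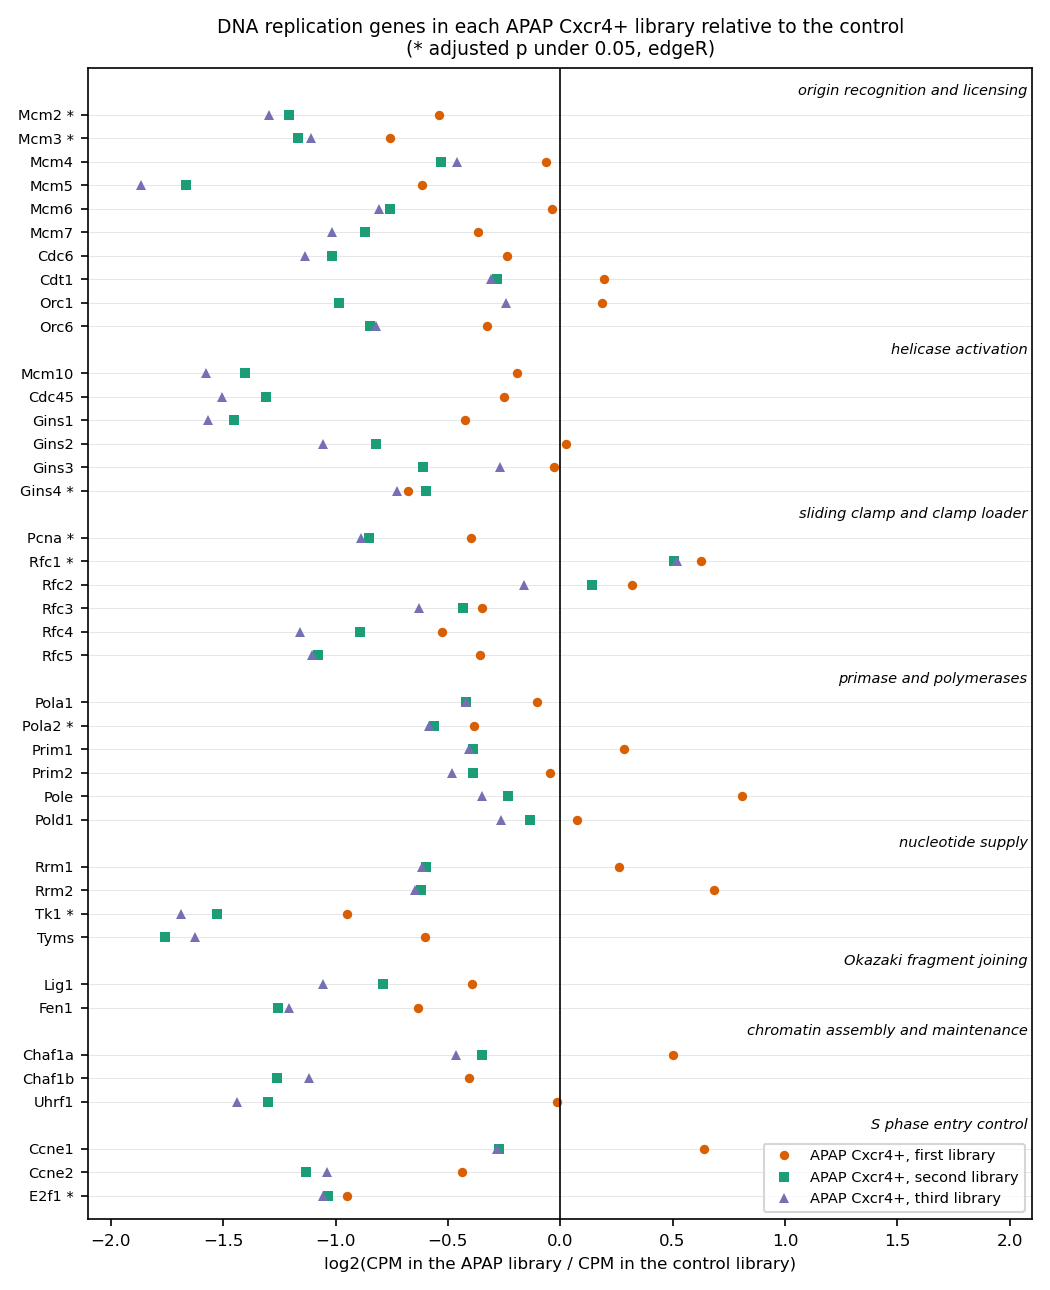
Level of each of the 40 DNA replication genes in each APAP Cxcr4+ library relative to the control library, as log2 of the CPM ratio, grouped by role; the vertical line is the control and asterisks mark genes with an adjusted p under 0.05. The first APAP library lies furthest right for 39 of the 40 genes, and 28 genes have all 3 points left of the control.

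The libraries of the APAP group differed among themselves at these genes. The first APAP library had the highest level of the 3 for 39 of the 40 members, where 36.9% of all genes tested were highest in it. Gins4 was the exception. The ratio of the first library to the mean of the other two had a median of 1.57 over the members (range 0.99 to 2.56), against 0.99 over all genes tested. It was at least 1.5 for 22 members, where 8.76% of all genes tested reached that. Uhrf1, which reads the methylation of newly copied DNA, had the ratio 2.56, Rrm2, the S phase subunit of ribonucleotide reductase, 2.50, and the helicase factor Mcm10 2.45. At the other end, the ratio was 1.07 for the transcription factor E2f1 and 1.08 for the clamp loader subunit Rfc1. Summed over the 40 members, the level was 993 CPM in the first, 695 in the second and 665 in the third APAP library and 1165 in the control. The median coefficient of variation over the 3 APAP libraries was 28.0% for the members and 12.1% for all genes tested.

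Without the first APAP library, 31 of the 40 members were called lower and 1 higher, where 22.7% and 28.1% of the 18463 genes then tested were called. The 31 are 77.5% of the list, and the median log2 fold change of the members was -0.85. All 8 members called with the 3 libraries were called without the first one as well. Without the second APAP library 4 members were called lower and 1 higher, where 11.0% and 16.2% of all genes then tested were called. Without the third, 11 were called lower and 1 higher, where 19.2% and 26.1% were called.

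**Figure D2:**
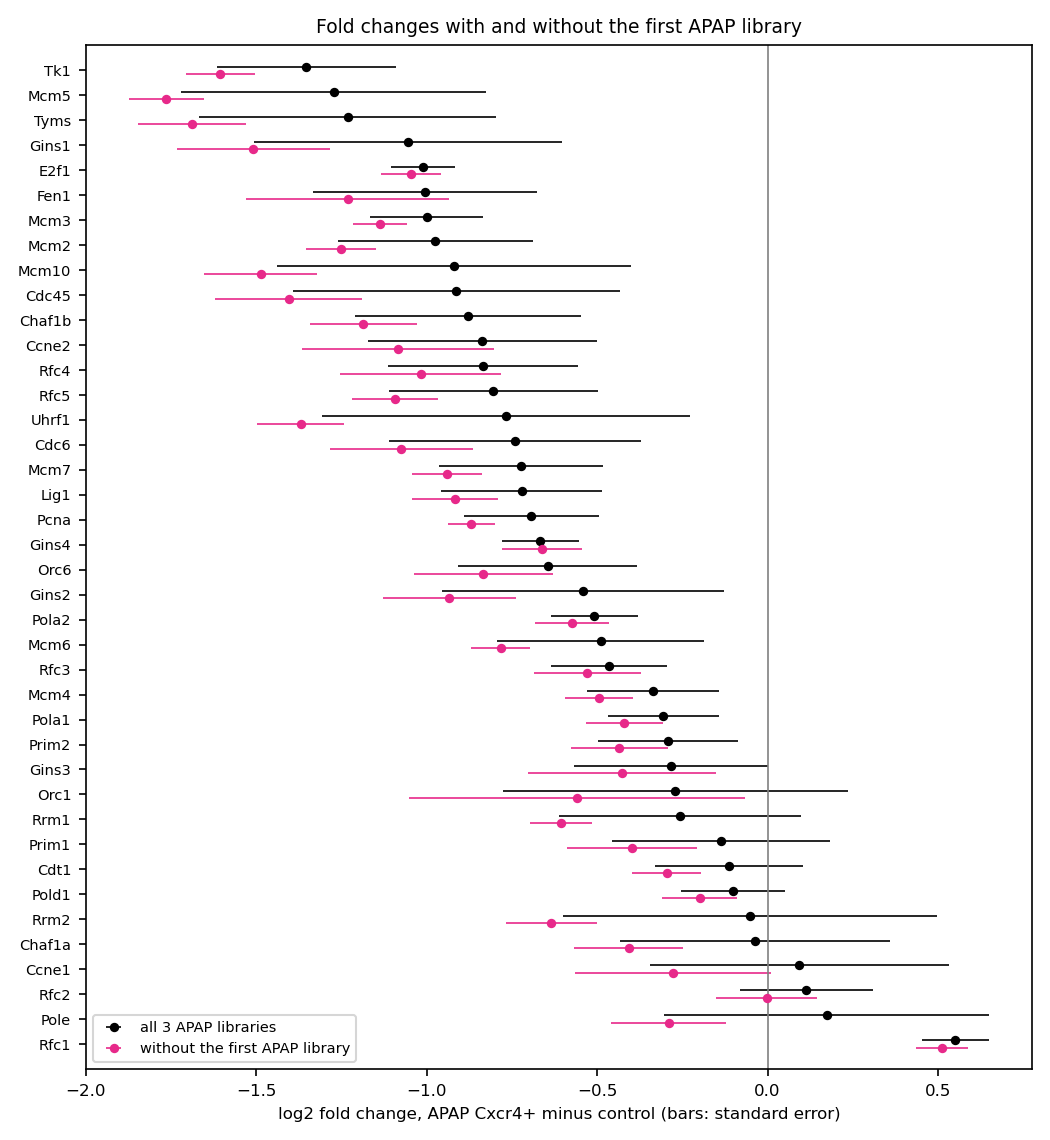
Log2 fold change of each DNA replication gene between APAP Cxcr4+ macrophages and the control, with its standard error, from all 3 APAP libraries (black) and without the first (pink). With the first library left out, 39 of the 40 values lie below 0, and Rfc1 is the gene that stays above.

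Licensing factors came first in the order of replication. None of the 10 was above the control in the fit: 2 fell, and the others had log2 fold changes between -1.27 and -0.11 that did not pass. Mcm3, a subunit of the MCM2 to MCM7 ring, was at 52.8, 39.8 and 41.4 CPM after APAP against 89.3 CPM in the control. All 3 APAP libraries lay well below the control, and Mcm3 had a log2 fold change of -1.0004 (SE 0.1647), with an adjusted p of 0.00612. Mcm2, the subunit that also handles parental histones, was at 32.6, 20.6 and 19.3 CPM against 47.4 CPM. The first library stood apart from the other two but still below the control, and Mcm2 fell by 0.97 (SE 0.29, adjusted p = 0.0382), a call that was lost without the second APAP library (adjusted p = 0.0992) and with library totals alone (adjusted p = 0.0787).

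The remaining ring subunits did not pass the test. Mcm5 was at 46.9, 22.6 and 19.7 CPM against 71.8 CPM, a difference of -1.27 on the log2 scale (SE 0.45, adjusted p = 0.0632). The first library had more than the other two combined, so the wide spread went with a large difference. Mcm7 was at 43.0, 30.4 and 27.4 CPM against 55.5 CPM (adjusted p = 0.0546). Mcm6 was at 58.0, 35.1 and 34.0 CPM against 59.5 CPM, and Mcm4 at 38.1, 27.5 and 29.0 CPM against 39.8 CPM. For both, the first APAP library was close to the control while the other two were lower (log2 fold changes -0.49 and -0.34, adjusted p = 0.23 and 0.202). When the first library was left out, all 6 ring subunits were called lower, from -1.76 (SE 0.11) for Mcm5 to -0.49 (SE 0.10) for Mcm4.

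Levels per kilobase use the longest protein-coding transcript, which may not be the one in use. The ring subunits, which assemble in equal numbers as protein, spanned 11.1 (Mcm4) to 29.5 (Mcm3) CPM per kb in the control. In the APAP libraries they spanned 9.67 to 17.4, 6.10 to 13.1 and 5.72 to 13.7 CPM per kb, with Mcm3 at the top in each. Mcm5 had the second highest level of the 6 in the control, at 21.2 CPM per kb, and in the third APAP library it stood at 5.82, next to the lowest, Mcm2.

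The loaders of the ring showed smaller differences. Cdt1, which brings the helicase to origins and is held in check by geminin, was at 38.1, 27.3 and 26.8 CPM against 33.2 CPM in the control, so that the control lay inside the APAP range (log2 fold change -0.11, adjusted p = 0.694). Cdc6 was at 5.81, 3.39 and 3.12 CPM against 6.85 CPM (-0.74, adjusted p = 0.149). Orc6 had -0.65 (adjusted p = 0.0935), and Orc1, with 29 to 61 reads a library, had -0.27 (SE 0.51), an imprecise value.

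Among the 6 helicase activators, 1 fell and the other 5 did not pass. Gins4, a GINS subunit, was at 18.8, 19.9 and 18.2 CPM against 30.1 CPM, with no sign of the excess in the first library (-0.67, SE 0.11, adjusted p = 0.00688). That call was lost when fold changes were corrected for their trend over transcript length (-0.34, adjusted p = 0.069). Its partner Gins1 showed that excess, at 4.98, 2.44 and 2.25 CPM against 6.68 CPM (-1.05, adjusted p = 0.106). Gins2 had a log2 fold change of -0.54 and Gins3 of -0.28. Per kilobase, Gins4 stood at 22.3 CPM per kb in the control and Gins1, Gins2 and Gins3 at 6.14, 2.25 and 1.47. These proteins form a complex in equal numbers, but the lengths may not be those of the transcripts in use. The count of Gins2 is also uncertain, as a gene on the opposite strand covers 67.3% of its exon bases. Cdc45, the partner of GINS on the helicase, was at 6.37, 3.05 and 2.66 CPM against 7.57 CPM, and Mcm10 at 12.0, 5.19 and 4.61 CPM against 13.7 CPM. In both the first APAP library was near the control and the other two were far below it (adjusted p = 0.167 and 0.193).

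The sliding clamp Pcna, which tethers polymerases to DNA, was at 94.6, 69.0 and 67.2 CPM after APAP against 124 CPM. Per kilobase it had the highest level of the 40 in each library, 81.9 CPM per kb in the control. Pcna fell by 0.69 on the log2 scale (SE 0.20, adjusted p = 0.0353). The call was lost without the second APAP library (adjusted p = 0.101), with library totals alone (adjusted p = 0.0997) and with the correction for transcript length (-0.40, adjusted p = 0.169). Rfc1, the large subunit of the clamp loader, went the other way: it was at 79.4, 73.2 and 73.8 CPM against 51.5 CPM and rose by 0.55 (SE 0.10, adjusted p = 0.00794). All 3 APAP libraries lay above the control, but with the correction for transcript length the value was 0.19 (adjusted p = 0.174). The small subunits Rfc3, Rfc4 and Rfc5, which complete the loader, had log2 fold changes of -0.47, -0.83 and -0.80 with adjusted p between 0.0543 and 0.0785, and Rfc2 had 0.11. Per kilobase the large subunit went from 10.8 CPM per kb in the control to 15.4 to 16.7 in the APAP libraries, while Rfc4 went from 4.61 to between 2.07 and 3.21.

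**Figure D3:**
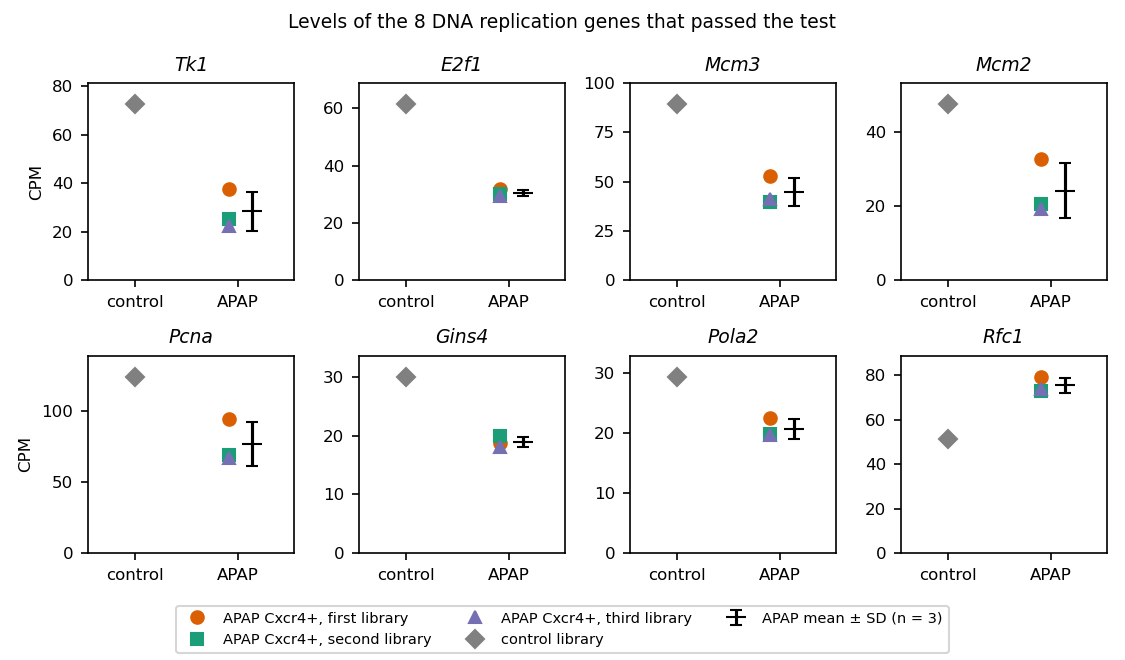
CPM of the 8 DNA replication genes with an adjusted p under 0.05, in the control library (diamond) and the 3 APAP Cxcr4+ libraries (coloured), with the APAP mean and SD (n = 3). In 7 panels all APAP points lie below the control, and in the Rfc1 panel all lie above it.

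The 6 polymerase and primase subunits had the median log2 fold change nearest to 0 among the 8 role groups, -0.21. Pola2, the regulatory subunit of polymerase alpha, was at 22.5, 19.9 and 19.6 CPM against 29.4 CPM and fell by 0.51 (SE 0.13, adjusted p = 0.0233). It did not pass without the second APAP library (adjusted p = 0.0836) or with library totals alone (adjusted p = 0.108). The other 5 did not pass, with log2 fold changes from -0.31 for the catalytic subunit Pola1 to 0.17 for Pole, the leading strand polymerase. Pole was at 14.9, 7.26 and 6.69 CPM against 8.52 CPM, so its first APAP library was above the control and the other two below. Pold1, the catalytic subunit of the lagging strand polymerase, was at 33.5, 29.0 and 26.5 CPM against 31.8 CPM.

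Among the 4 enzymes that supply nucleotides 1 fell. Tk1, the thymidine kinase of the salvage route, was at 37.6, 25.2 and 22.6 CPM against 72.6 CPM, on average 39.2% of the control. It fell by 1.35 (SE 0.26, adjusted p = 0.0104), the largest fall among the members called. Tyms, which makes thymidylate from scratch, was at 9.91, 4.45 and 4.88 CPM against 15.04 CPM (-1.23, SE 0.44, adjusted p = 0.0642). Rrm1 and Rrm2, the subunits of ribonucleotide reductase, had the control inside the APAP range. Rrm2 was at 25.2 CPM in the first APAP library, higher than the 15.6 CPM of the control, and at 10.2 and 9.98 CPM in the other two. Without the first library, Rrm1 and Rrm2 were called lower, at -0.61 (SE 0.09) and -0.63 (SE 0.13).

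Ligase Lig1, which seals the fragments of the lagging strand, was at 39.5, 30.0 and 24.9 CPM against 51.8 CPM (-0.72, adjusted p = 0.0518), and the flap nuclease Fen1 had -1.01 (adjusted p = 0.0518). Chaf1a and Chaf1b, subunits of the factor that places histones on new DNA, had log2 fold changes of -0.04 and -0.88, and neither passed. Uhrf1 was at 27.2 CPM in the first APAP library, level with the control at 27.4 CPM, and at 11.1 and 10.1 CPM in the other two (-0.77, SE 0.54, adjusted p = 0.284). In the reference annotation, other genes on the opposite strand cover 84.2% of the exon bases of Fen1, 67.3% of Gins2 and 52.5% of Chaf1a. Whether counting used strand is not given in the sources used here, so the values of these 3 are uncertain. Pcna and Tyms have annotated pseudogene copies that could share their reads.

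E2f1, the factor that drives much of this programme, gave the smallest p of the list. It was at 31.8, 30.0 and 29.6 CPM after APAP against 61.4 CPM, and it fell by 1.01 (SE 0.09, adjusted p = 0.00145). The APAP libraries lay within a narrow band, the first included, at 49.6% of the control on average. The cyclins that start S phase did not pass: Ccne1 was at 3.88, 2.07 and 2.05 CPM against 2.49 CPM, and Ccne2 at 2.57, 1.58 and 1.69 CPM against 3.47 CPM. E2f1, Mcm3 and Tk1 were the 3 members called under every alternative run except the test against a log2 fold change of 1. That test called 0 of the 40 (1 at an unadjusted p of 0.05) and 1379 of 18715 genes. The adjusted p of E2f1, Mcm3 and Tk1 ran up to 0.0149, 0.0279 and 0.0417 over the other alternatives.

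Members with and without an E2F word in the promoter were also set side by side, with no test. Of the 13 members with such a word 1 was called lower, Mcm3, and of the 19 without it 5 were, where 18.9% of all genes tested were called lower. These counts are small. Median log2 fold changes were -0.49 and -0.80, and the median ratio of the first APAP library to the other two was 1.44 and 1.64.

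Other genes of the pathway were taken from a list of 53 replication factors outside the 40. In it 5 rose and 13 fell, where 25.4% and 18.9% of all genes tested did so. The median was -0.22, and 38 were highest in the first APAP library (71.7%, against 36.9% of all genes tested). Pole4, a small subunit of polymerase epsilon, went from 40.4 CPM in the control to 17.2, 14.8 and 14.5 CPM and fell by 1.39 (SE 0.13, adjusted p = 0.00154). Rnaseh2c, a subunit of the nuclease that removes RNA from DNA, fell by 1.203 (SE 0.15), and Rpa2, which coats single-stranded DNA, by 1.17 (SE 0.17). Dna2, a nuclease and helicase that trims long flaps, went from 1.51 CPM to 15.4, 11.5 and 10.6 CPM and rose by 3.05 (SE 0.31, adjusted p = 0.00174). Without the first APAP library 6 of this list rose and 21 fell, where 28.1% and 22.7% of all genes then tested did so. With library totals alone 8 rose and 10 fell around a median of -0.01, where 6072 and 2343 of 18715 genes did so. Without the second APAP library 1 rose and 9 fell, where 16.2% and 11.0% of all genes then tested did so. With the length correction 1 rose and 13 fell, where 3260 and 2989 of 18644 genes did so.

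Of 30 genes that control the step from G1 into S phase, 9 rose and 3 fell, where 25.4% and 18.9% of all genes tested did so. Their median log2 fold change was 0.23, but -0.02 without the first APAP library and -0.01 with the correction for transcript length. The cyclin-dependent kinase inhibitor Cdkn1a (p21), which blocks entry into S phase, went from 17.1 CPM to 79.0, 86.7 and 113.6 CPM and rose by 2.44 (SE 0.24, adjusted p = 0.00168). Rb1, which holds E2F factors inactive, rose by 0.92 (SE 0.10) from 27.7 to 52.4 ± 1.30 CPM (SD, n = 3). Cyclin D1 (Ccnd1), which relieves that hold, went from 108 CPM in the control to 38.6, 34.3 and 43.1 CPM and fell by 1.48 (SE 0.13, adjusted p = 0.00129). Its kinase partner Cdk6 rose by 0.95 (SE 0.10), but the value was -0.01 with the correction for transcript length. Under that correction 4 of the 30 rose and 1 fell, where 3260 and 2989 of 18644 genes did so. The other genes called higher with all libraries were E2f2 (1.94), Ccnd2 (0.85), Tfdp2 (0.80), Rbl2 (0.78), Cdkn1b (0.47) and Cdk2 (0.44). The others called lower were Cdk4 (-0.58) and Ccnd3 (-0.46). Without the first APAP library, 9 of the 30 rose and 5 fell, where 28.1% and 22.7% of all genes then tested did so.

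Genes of mitosis, the step after replication, did not show the lower level. Of 30, edgeR called 4 higher and 0 lower, where 25.4% and 18.9% of all genes tested were called. At an unadjusted p of 0.05 the counts were 7 and 0, where the shares of all genes tested are at least those 25.4% and 18.9%. The DESeq2 Wald test called 3 and 0, where 4727 and 3269 of 18715 genes were called. With limma-voom the counts were 3 and 0, where 4134 and 3644 genes were called. The median was 0.61. The control lay above all 3 APAP libraries for 0 of the 30, where it did so for 39.2% of all genes tested. It lay below all 3 for 12 of the 30, where it did so for 45.7% of all genes tested. For the other 18 it lay inside the APAP range. Mki67, a general mark of cycling cells, was at 285, 143 and 116 CPM against 54.3 CPM and rose by 1.74 (SE 0.54, adjusted p = 0.0448). It did not pass without the second APAP library (adjusted p = 0.0702), in the DESeq2 Wald test (adjusted p = 0.0756) or with the correction for transcript length (0.86, adjusted p = 0.236). Cenpf, a kinetochore protein, rose by 2.80 (SE 0.65), but did not pass with the length correction (adjusted p = 0.0662) or with limma-voom (adjusted p = 0.065). The condensin subunit Smc4 rose by 0.93 (SE 0.19) and the centromeric histone Cenpa by 0.82 (SE 0.22, adjusted p = 0.0692 without the second APAP library). Top2a, the topoisomerase that untangles chromosomes, was at 105, 47.3 and 36.8 CPM against 42.2 CPM and did not pass (adjusted p = 0.443). All 30 were highest in the first APAP library, where 36.9% of all genes tested were. The median ratio of the first library to the mean of the others was 2.24, against 0.99 over all genes tested. The summed level of the 30 was 1237, 662 and 528 CPM against 458 CPM in the control. Without the first library 7 mitosis genes rose and 3 fell around a median of 0.08, where 28.1% and 22.7% of all genes then tested did so. Without the third 14 rose, where 26.1% of all genes then tested did so. Without the second 2 rose, where 16.2% did so. With the length correction 2 rose as well, where 3260 of 18644 genes did so. The difference in direction between the replication and the mitosis genes was not tested.

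**Figure D4:**
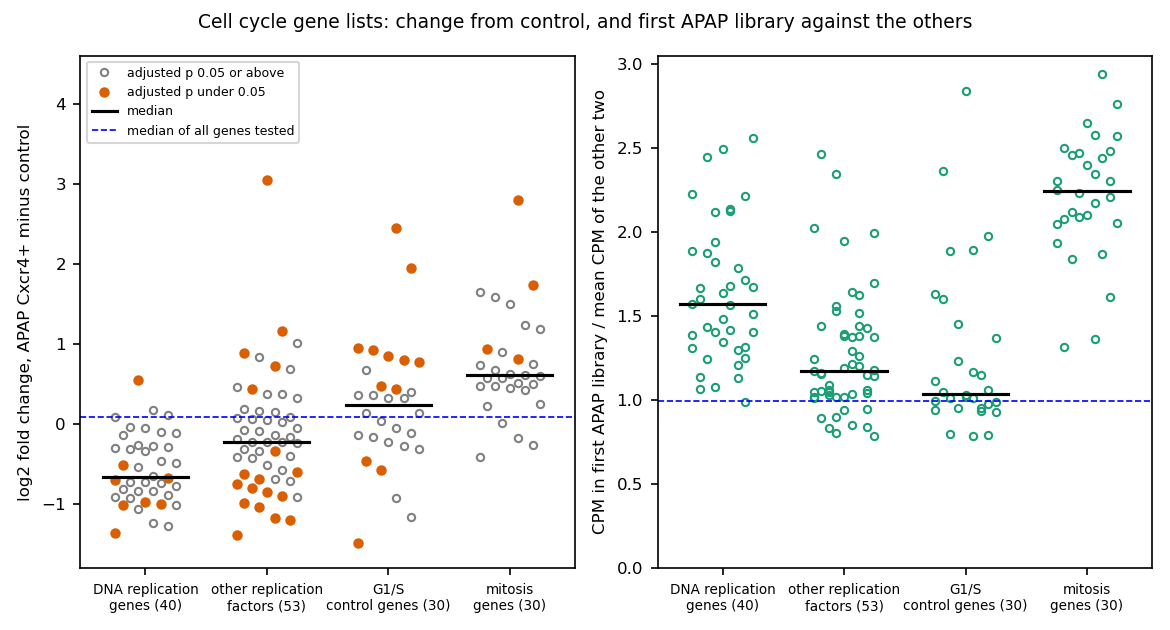
Left, log2 fold change of every gene in the 40 DNA replication genes and 3 other cell cycle lists, with orange for an adjusted p under 0.05, a black bar at the list's median and a dashed line at the median of all genes tested. Right, CPM in the first APAP library divided by the mean of the other two; medians are 1.57 for the replication genes and 2.24 for the mitosis genes.

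Markers of other cells moved with the group as well, and their part in these results was not tested. Of all genes tested, 25.4% were called higher and 18.9% lower. Summed B cell markers were at 454 to 699 CPM after APAP against 75.7 CPM, with 12 of 12 higher and the defining marker Cr2 at 0 counts in the control. All 12 were highest in the second APAP library, where 5348 of the 18715 genes tested were. T cell markers summed to 147 to 191 CPM against 84.6 CPM (9 of 12 higher), and the recruited monocyte markers to 603 to 773 CPM against 30.8 CPM (6 of 6 higher, Chil3 at 0 counts in the control). NK cell markers summed to 62.9 to 84.5 CPM against 64.0 CPM, with 5 of 8 higher and 1 lower. The lower one, Klrk1, alone made up 23.9, 32.3 and 28.0 CPM against 53.3 CPM, so the sum mostly follows Klrk1 in the control. Kupffer cell markers summed to 13130, 16690 and 17120 CPM against 32490 CPM, with 7 of 9 lower. Neutrophil markers were at 375, 285 and 204 CPM against 156 CPM, with 3 of the 7 tested higher. Of these sums Csf3r alone made up 231, 199 and 153 CPM against 111 CPM. Camp, Elane, Ltf, Ly6g and Mpo were at 0 counts in the control. Ly6g (7, 2 and 2 counts), Elane (2, 2 and 0) and Mpo (0, 4 and 0) were also near 0 after APAP and were not tested. Camp had 17, 4 and 19 counts after APAP and Ltf 112, 17 and 61. Erythroid markers, among them the globin genes, were at 31.8, 181 and 38.9 CPM against 224 CPM. Of the 6 tested 1 was higher, Klf1, with 12, 14 and 14 counts after APAP and 0 in the control. Plasma cell markers summed to 70.7 to 83.0 CPM against 18.9 CPM (3 of 5 higher), of which Prdm1 made up 51.8, 54.8 and 51.2 CPM against 12.3 CPM. Conventional dendritic cell markers summed to 80.6 to 112 CPM against 76.0 CPM (5 of 6 higher, 1 lower). The lower one, Batf3, made up 21.1, 23.3 and 26.4 CPM against 57.3 CPM. Plasmacytoid dendritic cell markers summed to 301 to 324 CPM against 381 CPM (5 of 6 higher, 1 lower, Siglech at 0 counts in the control). Here the lower one, Bst2, made up 128.6, 108.5 and 125.2 CPM against 288.3 CPM. Hepatocyte markers summed to 246 to 409 CPM against 847 CPM (7 of 8 lower) and endothelial markers to 844 to 1255 CPM against 1856 CPM (2 of 6 lower, 1 higher).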

How the data were processed

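The deposited table holds raw read counts for each Ensembl gene. It was made with HISAT2, Subread and build mm39, per the submitters' processing notes. The sources used here do not give their versions, the annotation or the strand setting. The APAP columns carry no replicate number. Symbols came from GENCODE names for 28926 of 29247 IDs (98.9%), and transcript lengths (the longest protein-coding transcript) from the same release.

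Genes kept by filterByExpr (minimum count 10, minimum total 15; 18715 genes) were compared with edgeR 4.0.16 in R 4.3.3, by the quasi-likelihood F test without covariates, with Benjamini-Hochberg adjustment over all genes tested and calls at 0.05. The standard error is the absolute log2 fold change divided by the square root of F. With 1 control, the spread comes from the APAP libraries (2 residual degrees of freedom, 3.8 prior degrees of freedom). The single control was taken to vary as much as they do.

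Alternatives were DESeq2 1.42.0 size factors and Wald test, upper-quartile factors, no filter, a minimum of 5 CPM in 1 or more libraries, each APAP library left out, limma-voom (limma 3.58.1), glmTreat, no mitochondrial or ribosomal protein genes, and a loess correction (span 0.4) of fold changes over transcript length. Library totals alone were added after seeing the data. The members and lists were chosen with earlier results of these data known. Values are shown in every library for members that passed the test and for Mcm2 to Mcm7. Of each other pathway list the 4 called genes with the smallest p are named, and Mki67, Top2a and Cxcr4. For the step from G1 into S phase the other called genes are named as well. Other genes were chosen after their values were seen. A further erythroid marker is not reported here.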

Additional observations from a re-analysis of the deposited data

How the results depend on the processing

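The count of members called lower, 7 with all libraries, was 4 to 31 with an APAP library left out. The share of all genes called lower was 18.9%, and 11.0% to 22.7% with a library left out. With upper-quartile factors 11 members and 3717 of 18715 genes were called lower, and with no filter 11 members and 3346 of 27284 genes. The count was 12 with the DESeq2 Wald test (3269 of 18715 genes), 13 with limma-voom (3644 genes) and 4 with library totals alone (2343 genes). It was 0 with the test against a log2 fold change of 1 (280 genes). The count called higher, 1 with all libraries, was 0 with the correction for transcript length (3260 of 18644 genes). It was also 0 with the test against a log2 fold change of 1 (1099 of 18715 genes). The count over all genes was 8295, 5001 to 9380 with a library left out, and 1379 with that test. With library totals alone 72.2% of all called genes were higher, against 57.4%.

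Members near 0 changed sign, with no call where they did. With an APAP library left out in turn, values ran from -0.0025 to 0.25 for Rfc2 (0.11 with all), -0.29 to 0.39 for Pole (0.17), -0.28 to 0.27 for Ccne1 (0.09), -0.63 to 0.19 for Rrm2 (-0.05), -0.41 to 0.15 for Chaf1a (-0.04) and -0.40 to 0.00 for Prim1 (-0.14). With the length correction they were 0.0068 for Cdt1, -0.28 for Rfc2, 0.14 for Prim1, -0.48 for Pole and 0.067 for Rrm2. With library totals alone they were 0.091 for Cdt1, 0.069 for Prim1, 0.10 for Pold1, 0.15 for Rrm2 and 0.17 for Chaf1a. The cause was not tested, and fold changes followed transcript length over the 18644 genes with a length (Spearman's rho 0.268; genes are not independent replicates). No paired analysis was possible because the columns carry no replicate numbers and the control is a single library.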
